A study of Mus musculus with 20 samples.

Results

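The genes examined were 9 members of the liver's heme pathway on Agilent mouse arrays: Alas1, Alad, Uros, Urod, Cpox, Ppox and Fech, which make heme, and Hmox1 and Blvrb, which take part in breaking it down. They were chosen by gene name, as all probes of the array that carry one of these symbols, which gave 12 of 55681 non-control probes. All 12 passed the filter on dim probes, and the 9 genes were among 22023 genes tested. Levels were measured in the livers of 20 female mice, with 1 array per animal and 5 animals per group. The groups were ERa-/- mice given estradiol (E2, the main ovarian estrogen), ERa-/- mice given placebo, ERa+/+ mice given E2 and ERa+/+ mice given placebo. ERa-/- mice lack estrogen receptor alpha and are called null here, and ERa+/+ mice are called wild type. In all 20 mice the ovaries were removed at 4 weeks, and dosing by gavage followed at 9 weeks, with E2 at 1 mg/kg or with the castor oil and ethanol vehicle alone, and the livers were taken 4 hours later under ketamine and xylazine. Wild types descended from the same parents as the nulls, and no source used here says which part of the gene the nulls lack.

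Heme is built in steps that start in the mitochondrion, pass through the cytosol and end in the mitochondrion. ALAS1 catalyses the first step, which limits the rate in liver, and heme itself holds that enzyme down. ALAD, UROS and UROD act in the cytosol, CPOX and PPOX in the mitochondrion, and FECH inserts the iron. Hepatocytes put most of their heme into cytochrome P450 enzymes. Heme oxygenase 1, encoded by Hmox1, opens the ring to give biliverdin, carbon monoxide and iron, and is abundant in Kupffer cells, the macrophages of the liver. Blvrb encodes a biliverdin and flavin reductase.

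Sequences are shown for the pair of members whose levels went together most closely, Alas1 and Alad, and for the Hmox1 transcript, the member that varied most. Promoter windows from RefSeq, 250 bases before to 50 after an annotated start on GRCm38.p6, were used for 7 of the 9 members, 11 windows in all, and those of Hmox1 and Fech were not analysed here. The first window printed is that of Alas1 at chr9:106247681-106247980 on the minus strand, and the second that of Alad at chr4:62519860-62520159, also on the minus strand. Capitals mark matches to the NRF1 site in Alas1, GCGCA and GCGC with any 1 base between them, and to the E-box CACGTG in Alad, both searched on both strands. The last pair are the probes that measured Alad and, as the dimmer of 2 probes, Hmox1, in lower case throughout, at chr4:62172559-62172618 on the minus strand and chr8:77620797-77620856 on the plus strand of mm9. They start at bases 787 and 324 of their transcripts.
Alas1 promoter: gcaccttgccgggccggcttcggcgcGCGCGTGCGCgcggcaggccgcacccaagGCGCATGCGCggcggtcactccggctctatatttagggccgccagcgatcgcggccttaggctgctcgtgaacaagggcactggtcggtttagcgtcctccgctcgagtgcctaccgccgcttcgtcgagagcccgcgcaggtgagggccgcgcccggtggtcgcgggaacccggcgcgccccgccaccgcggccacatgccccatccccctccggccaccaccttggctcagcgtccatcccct
Alad promoter: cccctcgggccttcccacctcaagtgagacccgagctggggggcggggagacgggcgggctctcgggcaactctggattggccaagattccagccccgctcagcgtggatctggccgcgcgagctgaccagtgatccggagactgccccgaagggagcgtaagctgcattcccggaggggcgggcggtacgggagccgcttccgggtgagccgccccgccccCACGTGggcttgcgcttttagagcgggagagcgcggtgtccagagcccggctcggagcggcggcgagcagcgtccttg
Alad probe: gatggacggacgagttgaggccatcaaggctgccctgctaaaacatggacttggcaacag
Hmox1 probe: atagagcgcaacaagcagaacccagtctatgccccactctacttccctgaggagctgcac
Matches to the NRF1 site lay in 3 of the 11 members' windows, both Alas1 windows and 1 of Uros, against 4.6% of all 32851 windows. The E-box lay in 4 windows, both of Alad and 1 each of Uros and Urod, against 7.15%. The full estrogen response element, GGTCA and TGACC with any 3 bases between them, was in 0 of the 11, against 0.07% of all windows, and its single arm GGTCA, which lies inside it, in 7, against 40.48%. The antioxidant response element core TGACNNNGC was in 0 of the 11, against 12.39%, and the single arm of the cAMP response element, TGACG, in 5, against 20.81%. The windows of Alas1 overlap each other, as do those of Alad, so the windows counted are not all separate sequences. The NRF1 and GGTCA matches of one Alas1 window are the same sites as those of the other. That also holds for the GGTCA match of Alad, whereas the E-boxes of the Alad windows are different sites.

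A level here is the log2 processed intensity minus the 75th percentile of its array, so that 0 is a probe as bright as that percentile and 1 is a doubling. Between 51.6% and 70.0% of spots per array were well above background, with wild-type E2 animal 1 highest and null placebo animal 1 lowest. Esr1, the gene of the receptor, lay between -2.16 and -0.93 in null livers and between -0.04 and 1.02 in wild-type livers, without overlap, and with placebo its level in nulls was 4.00-fold lower (adjusted p = 0.000488, limma). Albumin, the defining hepatocyte product, lay between 10.48 and 10.90 in all 20 livers. RNA came from whole pieces of liver, in which fewer cells of a type and less RNA per cell cannot be told apart.

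None of the 9 heme genes passed the test in any of the 7 comparisons. The fit gave 63 differences for these genes, the largest of which was 0.48 on the log2 scale, and 0 of them had an adjusted p under 0.05. Over all genes, the share that passed was 0.00454% for E2 against placebo in nulls, 0.318% for E2 against placebo in wild types and 0.163% for the difference between these effects of E2. It was 0.463% for null against wild type under E2, 0.0727% under placebo and 0.695% averaged over both treatments, and 0.132% for E2 against placebo averaged over both genotypes. At these shares a count of 0 among 9 genes is near the background. The count at an unadjusted p under 0.05 was 2 of 63, both for Blvrb. Over all genes that share was 6.05% for E2 in nulls, 8.29% for E2 in wild types and 7.39% for the difference between them, 9.63% for genotype under E2, 10.1% under placebo and 12.9% on average, and 7.36% for E2 on average. Where 2 groups were compared they overlapped at every member, whereas 0.813% of all genes did not overlap for E2 in nulls, 1.5% for E2 in wild types, 2.5% for genotype under E2 and 1.84% under placebo.

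The intervals give the size of change that these livers could have hidden, and they depend on the scaling and on the probe. Each gene is read at its brightest probe unless another is named. For the 8 members other than Hmox1, the 95% intervals of the E2 effect reached no further than 1.36-fold in nulls and 1.30-fold in wild types, in either direction. For null against wild type they reached 1.41-fold under E2 and 1.39-fold under placebo. With each array scaled to its median instead, the same 8 genes reached 1.53-fold for E2 in nulls, 1.75-fold for E2 in wild types, and 1.64-fold and 1.52-fold for genotype under E2 and under placebo. The array of wild-type E2 animal 1, which had the highest median of all, enters the limits for E2 in wild types and for genotype under E2. With Hmox1 included, the limits at the 75th percentile were 1.93-fold and 1.56-fold for E2 in nulls and in wild types, and 1.73-fold and 1.74-fold for genotype under E2 and under placebo. At the dimmer Alas1 probe the intervals were wider. They reached log2 0.87 for E2 in nulls, 0.90 for E2 in wild types, and 0.91 and 0.94 for genotype under E2 and under placebo. The dim second Uros probe was also less precise, with an interval from -0.88 to 0.57 for E2 in nulls. The median difference over the 9 members was 0.01 for E2 in nulls and 0.06 for E2 in wild types, where the median over all genes was -0.01 and 0.00. It was -0.03 for genotype under E2 and 0.03 under placebo, where the median over all genes was 0.00 and 0.01.

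**Figure D1:**
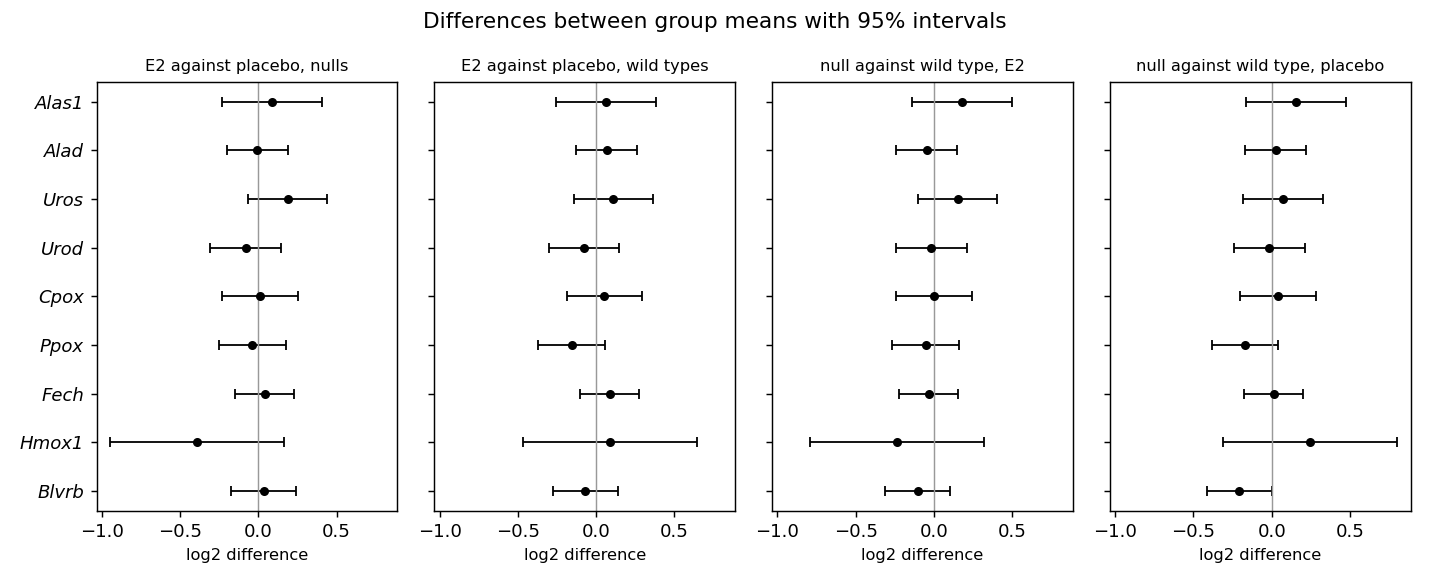
Log2 differences between group means for the 9 genes (points) with 95% intervals (bars) in 4 comparisons, 5 livers per group; values above 0 are higher with E2 or in nulls. Only the Blvrb interval for null against wild type under placebo stops short of 0, with an adjusted p of 0.493, and Hmox1 has the widest intervals.

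Alas1, the rate-limiting step, is read by 2 probes, the brighter on mm9 chromosome 9 from 106136284 to 106136343. At that probe the levels were 9.08, 9.20, 9.24, 9.25 and 9.02 in null E2 livers and 9.01, 9.30, 8.52, 9.35 and 9.17 in null placebo livers. They were 9.02, 9.25, 9.19, 8.68 and 8.76 in wild-type E2 livers and 9.31, 8.89, 8.85, 8.81 and 8.71 in wild-type placebo livers. The null E2 livers lay close together in the upper part of the range, while each of the other groups held at least 1 liver near its top and 1 near its bottom. Mean levels were 9.16 ± 0.11 in null E2 livers, 9.07 ± 0.34 in null placebo livers, 8.98 ± 0.25 in wild-type E2 livers and 8.91 ± 0.23 in wild-type placebo livers (SD, n = 5 each). E2 against placebo gave 0.09 ± 0.15 in nulls (SE, adjusted p = 0.969) and 0.06 ± 0.15 in wild types (adjusted p = 0.938). The 2 effects differed by 0.02 ± 0.22 (adjusted p = 0.992). Null against wild type averaged over both treatments gave 0.17 ± 0.11 (adjusted p = 0.587).

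The dimmer Alas1 probe, from 106135796 to 106135855, followed the brighter with a correlation of 0.93 over the 20 livers. It covered a wider span, 2.63-fold from the lowest liver to the highest against 1.79-fold at the brighter probe. Its levels were 4.55 to 4.92 in null E2 livers, 3.60 to 4.97 in null placebo livers, 3.84 to 4.95 in wild-type E2 livers and 3.58 to 4.90 in wild-type placebo livers. The null E2 livers again lay close together, and each of the other groups reached below them and overlapped them. E2 against placebo at the dimmer probe gave 0.30 ± 0.27 in nulls (SE, adjusted p over all probes of 0.93) and 0.33 ± 0.27 in wild types (0.78). These estimates were larger than those of the brighter probe, and less precise. Null against wild type averaged over both treatments was 0.36 ± 0.19 at this probe (SE, adjusted p over all probes of 0.480), so both probes put the difference above 0 and at neither did it pass.

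**Figure D2:**
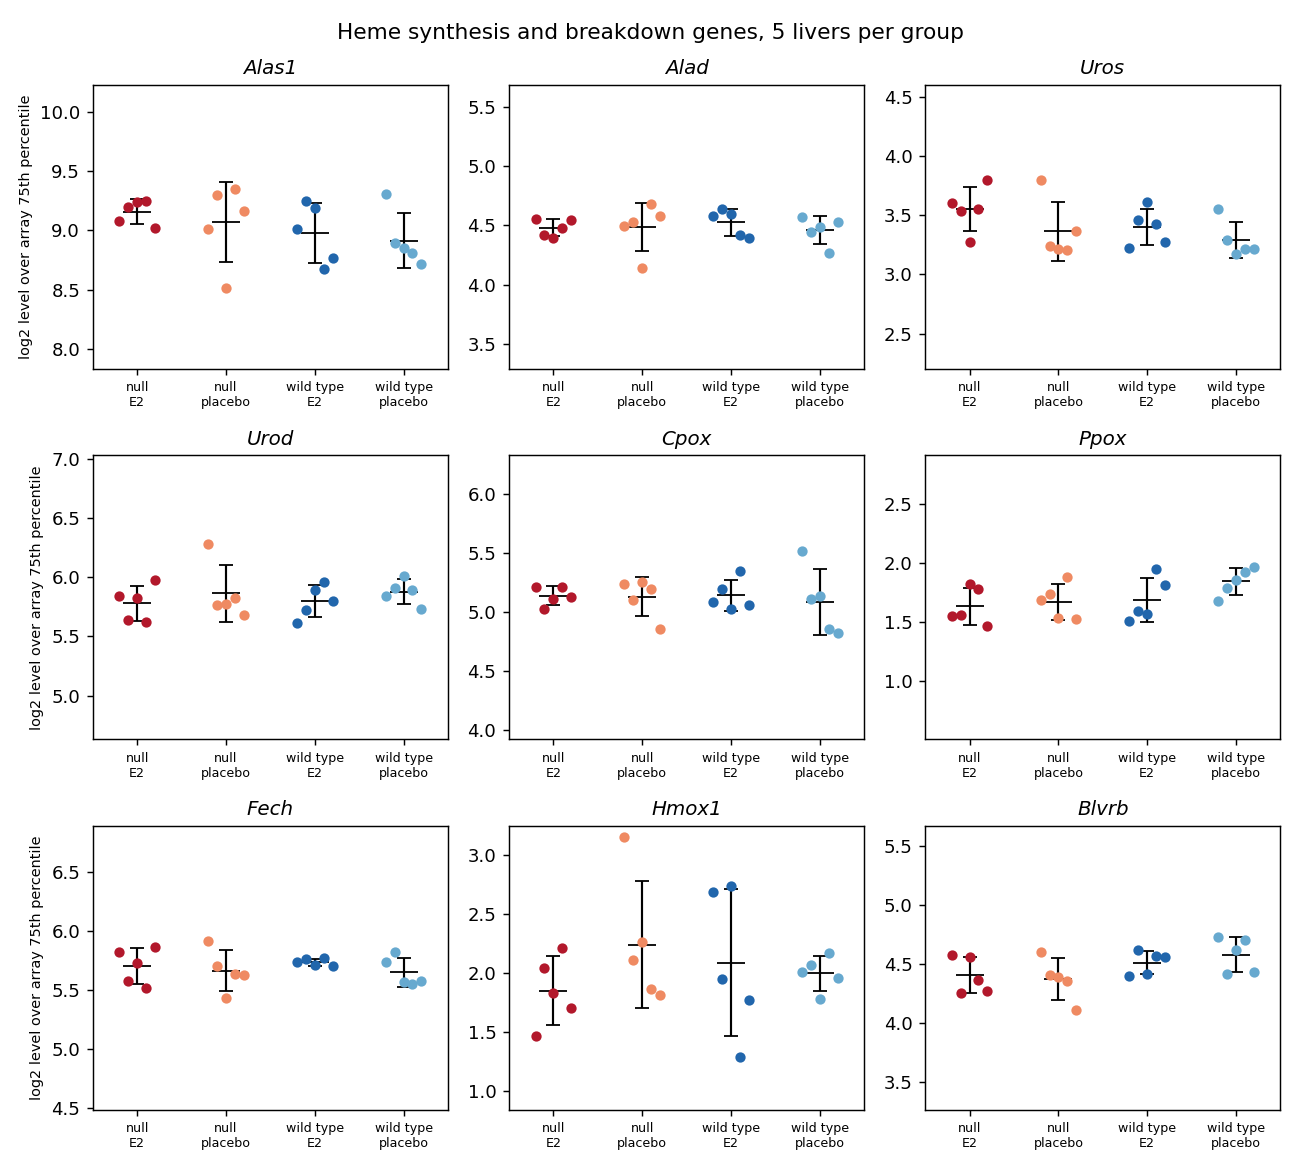
Log2 level relative to the array's 75th percentile for each of the 9 genes, 1 point per liver and 5 livers per group, with the mean (long tick) and SD (bar); every panel spans the same number of log2 units. Hmox1 is the most spread, from 1.29 to 3.15, and the groups overlap at every gene.

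None of the 3 cytosolic enzymes differed between groups beyond the spread among livers. Alad, which joins 2 molecules of aminolevulinic acid, lay between 4.39 and 4.55 in null E2 livers, 4.14 and 4.68 in null placebo livers, 4.39 and 4.64 in wild-type E2 livers and 4.27 and 4.57 in wild-type placebo livers. Its E2 effect was -0.01 ± 0.09 in nulls (SE, adjusted p = 0.997) and 0.07 ± 0.09 in wild types (adjusted p = 0.882). Uros, which closes the ring of uroporphyrinogen III, had levels of 3.61, 3.53, 3.27, 3.55 and 3.80 in null E2 livers and 3.80, 3.24, 3.22, 3.20 and 3.37 in null placebo livers. In the placebo group 4 of the 5 nulls lay below 3.40 and animal 1 stood apart from them. The wild types spanned 3.23 to 3.61 with E2 and 3.18 to 3.55 with placebo. Its E2 effect was 0.19 ± 0.12 in nulls (adjusted p = 0.866) and 0.11 ± 0.12 in wild types (adjusted p = 0.837). Without null placebo animal 1 the effect in nulls was 0.29 ± 0.11, with an adjusted p of 0.835.

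A second Uros probe, on mm9 chromosome 7 from 140883818 to 140883876, was dim, well above background on 16 of 20 arrays, and correlated with the first at only 0.19. It spanned 4.30-fold over the 20 livers and passed no comparison. Urod, which removes the carboxyl groups of the acetate side chains, averaged 5.78 ± 0.15 in null E2 livers, 5.86 ± 0.24 in null placebo livers, 5.80 ± 0.14 in wild-type E2 livers and 5.88 ± 0.10 in wild-type placebo livers (SD, n = 5 each). The highest liver was again null placebo animal 1, at 6.28. The effect of E2 on Urod was -0.08 ± 0.11 in nulls (SE, adjusted p = 0.956) and -0.08 ± 0.11 in wild types (adjusted p = 0.879). Without null placebo animal 1 the value in nulls was 0.02, on the other side of 0.

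**Figure D3:**
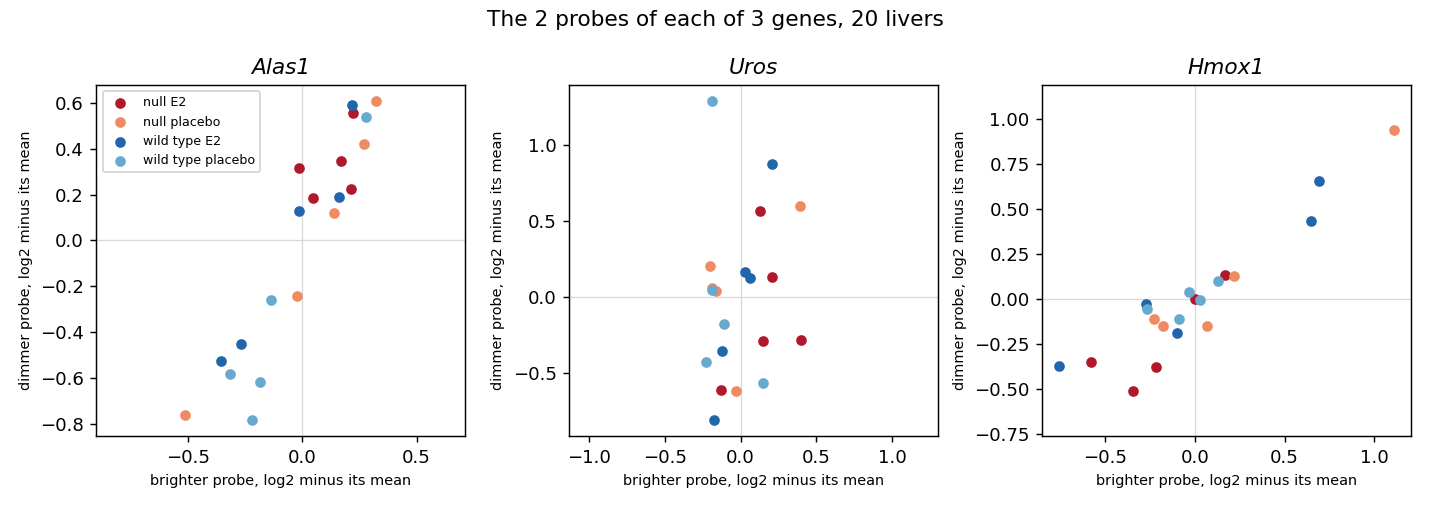
For Alas1, Uros and Hmox1, the dimmer probe against the brighter probe of the same gene, each as log2 level minus that probe's mean, 1 point per liver. The probes follow each other for Alas1 (r = 0.93) and Hmox1 (r = 0.932) and hardly for Uros (r = 0.19).

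The 3 mitochondrial enzymes also overlapped between groups. Fech, which places iron in protoporphyrin, covered 1.39-fold over the 20 livers, with means of 5.70 ± 0.15 in null E2 livers, 5.66 ± 0.17 in null placebo livers, 5.74 ± 0.03 in wild-type E2 livers and 5.65 ± 0.12 in wild-type placebo livers (SD, n = 5 each). Its intervals for E2 against placebo ran from -0.15 to 0.23 in nulls and from -0.10 to 0.27 in wild types. Cpox, which oxidises coproporphyrinogen, covered 1.62-fold, from 4.82 in a wild-type placebo liver to 5.52 in another of that group. Its 4 group means lay between 5.09 and 5.14, and the effect of E2 was 0.01 ± 0.12 in nulls (SE, adjusted p = 0.996) and 0.05 ± 0.12 in wild types (adjusted p = 0.932).

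Ppox, which makes protoporphyrin, had levels of 1.55, 1.56, 1.82, 1.78 and 1.46 in null E2 livers, 1.68, 1.74, 1.53, 1.88 and 1.52 in null placebo livers, 1.51, 1.59, 1.57, 1.95 and 1.81 in wild-type E2 livers and 1.68, 1.79, 1.86, 1.92 and 1.97 in wild-type placebo livers. The wild-type placebo livers filled the upper part of the range and overlapped every other group. The difference between nulls and wild types under placebo was -0.17 ± 0.10 (SE, adjusted p = 0.600), and between E2 and placebo in wild types -0.16 ± 0.10 (adjusted p = 0.698). Both share the wild-type placebo livers. Within the 3 slides that held both genotypes under placebo, the difference was between -0.39 and -0.08.

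Hmox1 varied more than any other member, 3.64-fold over the 20 livers against 1.39-fold to 1.79-fold for the other 8. At its brighter probe, on mm9 chromosome 8 from 77624207 to 77624266, the levels were 1.47, 2.05, 1.83, 2.21 and 1.70 in null E2 livers and 3.15, 2.11, 2.26, 1.87 and 1.82 in null placebo livers. They were 2.69, 1.95, 2.74, 1.29 and 1.77 in wild-type E2 livers and 2.01, 2.07, 1.78, 2.17 and 1.96 in wild-type placebo livers. One null placebo liver and a pair of wild-type E2 livers stood above the other 17, and the lowest liver of all was a wild type given E2. The dimmer probe, whose sequence is printed above, put the same 3 livers on top, at -0.05, -0.56 and -0.33, with the next at -0.85. E2 against placebo gave -0.39 ± 0.26 in nulls (SE, adjusted p = 0.872) and 0.09 ± 0.26 in wild types (adjusted p = 0.952), and these effects differed by -0.48 ± 0.37 (adjusted p = 0.832). Without null placebo animal 1, the effect in nulls was -0.16, its difference from that in wild types was -0.25, and null against wild type under placebo was 0.02, against 0.24 with it.

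Across the 20 livers, the gene whose level was most like that of Hmox1 was Clec4d, a C-type lectin of myeloid cells, with a correlation of 0.871. Cd14, the co-receptor for lipopolysaccharide, followed at 0.833, then Relb, a subunit of NF-kappaB, at 0.819, Capg, an actin capping protein of macrophages, at 0.816, and Flna, an actin cross-linker, at 0.806. Null placebo animal 1 and wild-type E2 animals 1 and 3, the highest livers for Hmox1, were also the highest for Clec4d. Their Clec4d levels were -2.115, -1.952 and -2.535, and the lowest liver was at -4.41, so Clec4d was dim. Correlations without these livers were not computed. The summed level of the neutrophil markers correlated with Hmox1 at 0.622, that of the hepatocyte markers at 0.619, of the stellate cell markers at 0.538, of the cholangiocyte markers at 0.471 and of the Kupffer cell markers at 0.317. For red cell markers it was 0.227, for T, NK and B cell markers 0.053 and for sinusoidal endothelial markers -0.301. The 75th percentile of the array, which is subtracted from every level, correlated with Hmox1 at -0.465. Neutrophil sums were 1.46 to 2.11 in null E2 livers, 1.25 to 2.67 in null placebo livers, 1.26 to 2.04 in wild-type E2 livers and 1.44 to 2.07 in wild-type placebo livers, from 5 measured markers of the 6 listed. Kupffer sums had overlapping ranges, with medians of 6.59 in null E2 livers, 6.44 in null placebo livers, 6.72 in wild-type E2 livers and 6.53 in wild-type placebo livers. All 13 Kupffer markers had E2 effects above 0 in both genotypes, with medians of 0.18 in nulls and 0.26 in wild types, and 0 passed. The smallest of these effects were 0.06 in nulls and 0.04 in wild types. Median scaling lowers every E2 effect by 0.11 in nulls and 0.22 in wild types. All marker effects below those sizes then turn negative, so the shared sign depends on the scaling. The part of these cells in the Hmox1 levels was not tested. These correlations are over the same 20 arrays and their scaling, and no p is attached to them.

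Blvrb was the member with the smallest p-values. Its levels were 4.58, 4.26, 4.56, 4.37 and 4.28 in null E2 livers and 4.60, 4.40, 4.39, 4.36 and 4.11 in null placebo livers. They were 4.40, 4.62, 4.41, 4.57 and 4.56 in wild-type E2 livers and 4.73, 4.41, 4.62, 4.70 and 4.43 in wild-type placebo livers. Under each treatment the highest null livers reached into the wild-type range. Null against wild type gave -0.10 ± 0.10 under E2 (SE, adjusted p = 0.766), -0.21 ± 0.10 under placebo (adjusted p = 0.493) and -0.16 ± 0.07 averaged over both (adjusted p = 0.346). The unadjusted p-values from limma were 0.303 under E2, 0.0494 under placebo and 0.0378 for the average. Within slides the placebo difference was below 0 on 2 of 3, from -0.31 to 0.09. The effect of E2 on Blvrb was 0.03 ± 0.10 in nulls (adjusted p = 0.985) and -0.07 ± 0.10 in wild types (adjusted p = 0.886).

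The members did not move as a block from liver to liver. The closest pair was Alas1 and Alad, the first and second enzymes, with a correlation of 0.672 over the 20 livers and 0.743 after the group means were taken out. Fech went with Uros at 0.563 and with Urod at 0.52, and Uros with Ppox at -0.495. Alas1 and Hmox1, the entry and exit of the pathway, correlated at 0.111. The correlations of these 20 points share arrays, scaling and any effect of the groups.

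**Figure D4:**
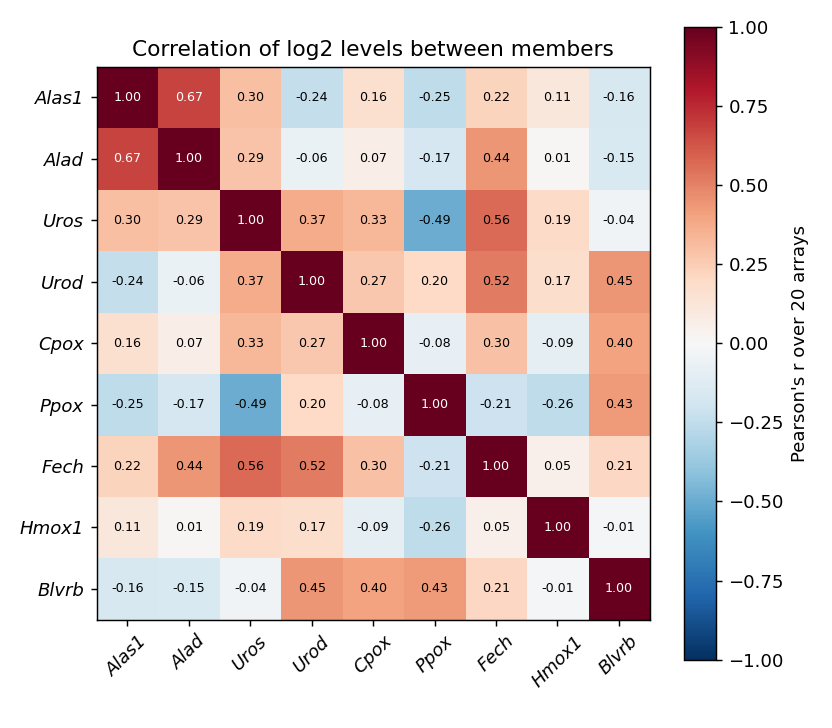
Pearson correlation of log2 levels between each pair of the 9 genes over 20 arrays, on a colour scale from -1 to 1. Alas1 with Alad has the highest value, 0.67, and Uros with Ppox the lowest, -0.49.

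For Alas1, the genes of most like pattern over the 20 livers were Adrb1, a beta adrenergic receptor, at 0.774 and Ddc, the aromatic amino acid decarboxylase, at 0.756. Tmem230 at 0.718 and Grin3b, a glutamate receptor subunit, at 0.716 followed, beside an unnamed transcript region on chromosome 1 at 0.722. Ddc and Tmem230 lay above 0 in every liver. The others were dim, at -3.81 to -1.99 for Adrb1, -2.57 to -0.49 for Grin3b and -2.42 to -1.41 for the region. Background weighs more at such levels. Among its known regulators the highest value was 0.525, for Nr1i3, the constitutive androstane receptor. The Kupffer cell marker sum correlated with Alas1 at 0.594, and the sums of the other marker lists at -0.169 to 0.255. For other members the closest genes were Insrr for Alad (0.701), Nbeal1 for Urod (0.912), Glul, glutamine synthetase, for Cpox (0.828), and Lin37 for Ppox (0.872). Insrr was dim as well, at -5.09 to -2.81, with its highest level in wild-type E2 animal 1. The closest to Uros (0.89) and Fech (0.837) were array features without a gene name.

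The other genes of heme synthesis, transport and turnover were read from a list of 22, all of them measured. Passing genes numbered 1 higher and 0 lower in nulls under placebo, and the same for the average over both treatments, with 0 in the other 5 comparisons. The 1 gene was Alas2, the erythroid form of the first enzyme, on mm9 chromosome X from 147004993 to 147005052. Its levels were 3.05, 2.81, 3.04, 2.98 and 2.94 in null E2 livers and 3.92, 3.16, 3.25, 3.15 and 3.33 in null placebo livers. They were 2.61, 2.74, 2.63, 2.85 and 2.62 in wild-type E2 livers and 2.27, 2.60, 2.52, 2.44 and 2.48 in wild-type placebo livers. Every null placebo liver lay above every liver of the other groups. Under placebo Alas2 was 1.86-fold higher in nulls (log2 0.90 ± 0.12, SE, adjusted p = 0.00252), a difference of 0.76 without the high null placebo animal 1 and of 0.74 to 0.94 within slides. With only the placebo livers in the fit the adjusted p was 0.130, under median scaling it was 0.174, and without the animals numbered below 750 it was 0.0608. Under E2 the genotypes differed by 0.27 ± 0.12 (adjusted p = 0.503), and E2 against placebo gave -0.40 ± 0.12 in nulls (adjusted p = 0.818) and 0.23 ± 0.12 in wild types (adjusted p = 0.635). The difference between the effects of E2 was -0.63 ± 0.17 (adjusted p = 0.336).

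Alas2 is also a red cell marker. All 8 measured of the 13 listed, Alas2 among them, were above 0 for null against wild type under placebo, with a median of 0.39, while the median over all genes was 0.01, and of the 8 only Alas2 passed. Hba-a2, an alpha globin, averaged 8.99 in null placebo livers and 8.61 in wild-type placebo livers. The summed marker level was 9.30 to 9.76 in null E2 livers, 9.36 to 9.79 in null placebo livers, 9.38 to 10.03 in wild-type E2 livers and 8.91 to 9.41 in wild-type placebo livers. For E2 against placebo in wild types all 8 markers were likewise above 0, with a median of 0.51 and a smallest value of 0.23, and 0 of them passed. Median scaling lowers every E2 effect in wild types by 0.22, close to the smallest of these values. The part of red cells in the Alas2 difference was not tested. Alas1 differed by 0.16 ± 0.15 between the same livers (SE, adjusted p = 0.801).

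**Figure D5:**
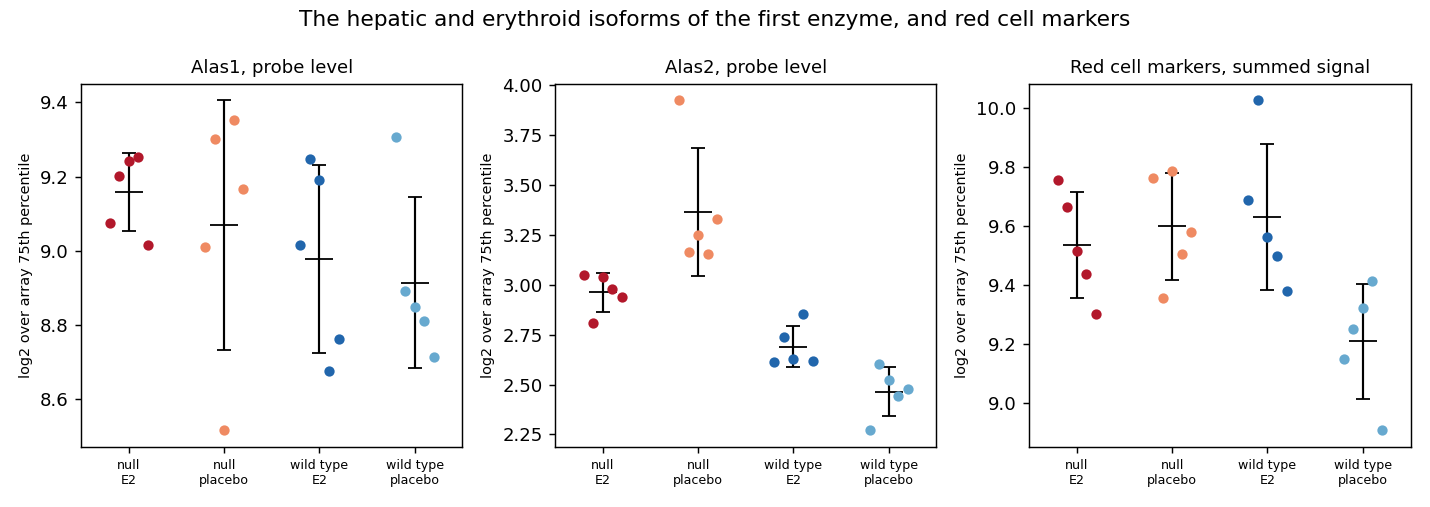
Log2 levels of Alas1 and Alas2 and the log2 summed signal of the red cell markers, each relative to the array's 75th percentile, 1 point per liver with the mean and SD of 5. Alas2 in null placebo livers lies between 3.15 and 3.92, above all other livers, while Alas1 overlaps between all groups. Red cell sums have their lowest median, 9.25, in wild-type placebo livers, whose range overlaps that of every other group.

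Abcg2, an exporter of porphyrins, came next to Alas2 on the list, at 0.45 ± 0.11 for null against wild type under placebo (SE, adjusted p = 0.171). Hmox2, the constitutive heme oxygenase, gave -0.21 ± 0.09 for null against wild type under E2 (adjusted p = 0.483). Flvcr2, a transporter of the heme exporter family, gave 0.58 ± 0.26 for E2 against placebo in wild types (adjusted p = 0.561).

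Of 7 genes that take up, conjugate or export bilirubin, 6 were measured and 0 passed in any comparison. The gene left out was Ugt1a1, that of the conjugating enzyme, because no probe carried its name, so conjugation was not examined. Slco1a1, an uptake transporter, gave -1.54 ± 0.85 for E2 against placebo in nulls (SE, adjusted p = 0.828) and -1.72 ± 0.85 in wild types (adjusted p = 0.615). Its levels lay between -1.53 and 2.02 in null E2 livers, 0.89 and 2.11 in null placebo livers, -3.86 and 2.44 in wild-type E2 livers and 0.83 and 2.37 in wild-type placebo livers. Each E2 group thus reached below its placebo group and overlapped it. Gsta3, a glutathione transferase, gave 0.28 ± 0.07 for null against wild type averaged over both treatments (adjusted p = 0.0823).

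Of 20 known regulators of Alas1 or Hmox1, 19 were measured, and 1 passed in 1 comparison. Cebpa, a liver transcription factor, was 1.54-fold lower with E2 in wild types (log2 -0.63 ± 0.12, SE, adjusted p = 0.0202), with levels of 3.78 to 4.38 in E2 livers and 4.56 to 4.98 in placebo livers. It kept an adjusted p under 0.05 in 23 of 35 alternatives, with log2 differences between -0.85 and -0.46 over all 35. Leaving out any of 5 single livers ended the call, with adjusted p-values of 0.0621 to 0.0785: animal 1 or 2 of those given E2, or animal 3, 4 or 5 of those given placebo. The E2 effect on Cebpa in nulls minus that in wild types was 0.61 ± 0.17 (adjusted p = 0.350). Hif1a, which encodes the oxygen-regulated subunit of the hypoxia factor, gave 0.54 ± 0.12 for E2 against placebo in wild types (adjusted p = 0.052). Bach1, the heme-binding repressor of Hmox1, averaged 2.31 in null E2 livers, 2.52 in null placebo livers, 2.55 in wild-type E2 livers and 2.46 in wild-type placebo livers. Nr1d1, the heme-binding clock repressor, gave -0.82 ± 0.32 for null against wild type under placebo (adjusted p = 0.371).

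Hmox1 shares the regulator NRF2 with a set of stress-response genes, of which 10 of 12 listed were measured and 0 passed in any comparison. Their median difference was -0.09 for E2 in nulls and -0.06 for E2 in wild types. The smallest adjusted p was that of Gstm3, a glutathione transferase, at 0.27 ± 0.12 for null against wild type averaged over both treatments (SE, adjusted p = 0.347), followed by Nqo1, a quinone reductase, at 0.33 ± 0.15 (adjusted p = 0.357). Of 21 heme-containing enzymes of hepatocytes, the main users of the product, 20 were measured and 0 passed. Cyp8b1, the sterol hydroxylase that makes cholic acid, gave 0.79 ± 0.23 for null against wild type averaged over both treatments (adjusted p = 0.116), and Cyp2b10, a target of the androstane receptor, 0.23 ± 0.07 (adjusted p = 0.118).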

How the data were processed

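Gene expression was measured with 1-colour Agilent arrays in 20 mouse livers, 5 animals in each of 4 groups of genotype and treatment taken from the labels. Per the file headers, the scanner images went through version 10.10.1.1 of Agilent Feature Extraction, giving a background-subtracted intensity for each spot on probes placed on mm9. A second file deposited by the authors holds log2 values of 32526 probes. Its columns followed the scanner's log2 median signal (correlation of at least 0.9987 on each array, column medians near 7.85), so that scale and direction are known and no centring of genes was seen. The submitters' processing notes name limma without a version. That table was used as an alternative.

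From the intensities, log2 levels were taken minus the 75th percentile of each array, and spots marked non-uniform were left out. No spot was saturated. A probe was kept if, in any group, 4 or more of the 5 arrays had it well above background, as was so for 30987. The brightest kept probe stood for each of 22023 genes, 6129 of which had several. The 4 group means were fitted over all 20 arrays with limma 3.58.1 in R 4.3.3 (16 residual and 2.44 prior degrees of freedom), and 7 contrasts were tested, 2-sided, adjusting p-values (Benjamini-Hochberg) across all genes of each and a threshold of 0.05. Member probes were also tested in a fit over all kept probes. An SE is that of the fit and an SD that of 5 animals. The number of arrays limits the precision. The fit was tested on simulated data. Tables and figures were made with pandas 2.3.3 and matplotlib 3.10.9.

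The members, the other gene lists, the marker lists and the alternatives were chosen with earlier results of these data known. All 9 members are named in every contrast. From the other lists, genes with an adjusted p under 0.05 are named, and otherwise those among the 2 smallest p-values of a list and contrast. Bach1 was named for its role, after its values were seen. For Alas1 and Hmox1 the 5 genes, and for each other member the 1 gene, of highest correlation are named, except for Blvrb, whose closest gene is not reported here. Animals were separate, so p-values measure the spread between animals. Old array names were updated through RefSeq accessions for 27235 probes, and 24300 kept the name in the file.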

Additional observations from a re-analysis of the deposited data

Results flagged for a closer look

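In null placebo livers, animal 1 stood apart from the other 4 at 3 of the 10 genes examined in this way, the 9 members and Alas2. Its level was 3.80 for Uros, where the next liver was at 3.37, and 6.28 for Urod, where the next was at 5.82. For Alas2 it was 3.92, where the next was at 3.33. The gap between this animal and its nearest neighbour was 0.717, 0.761 and 0.773 of the group's range for Uros, Urod and Alas2, above Dixon's limit of 0.71 for 5 values. Of 40 groups examined, 3 were marked, and chance marks about 1 in 20. The same animal had the highest Hmox1 level of all livers, 3.15, and the lowest share of spots well above background, 51.6%. Without it, null against wild type under placebo was -0.03 for Uros, -0.12 for Urod and 0.76 for Alas2 on the log2 scale, and the adjusted p for Alas2 was 0.000193.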

How the results depend on the processing

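In all 35 alternatives 0 of the 9 members had an adjusted p under 0.05. The smallest was 0.149, for Blvrb in null against wild type averaged over both treatments under quantile scaling (log2 -0.20 ± 0.06, SE). Of 2178 member differences under alternatives, 193 changed sign and 49 moved by over 1 SE, 26 of these under median scaling and 18 without the animals numbered below 750. Median scaling lowered all E2 effects, by 0.11 in nulls and 0.22 in wild types, so the sign of a small member difference is relative to the array's 75th percentile. The wild-type shift came largely from the array of wild-type E2 animal 1. Its median was 5.825 and its 75th percentile 8.508 in log2 intensity. The other arrays of that group had medians of 4.67 to 5.243 and 75th percentiles of 8.277 to 8.865. Leaving out the animals numbered below 750 took out 7 arrays, those of null placebo animals 1, 2 and 3 and of animals 1 and 2 of each E2 group. No wild-type placebo animal had a number below 750, so animal number and genotype went partly together under placebo. Without these 7 arrays, the Hmox1 effect of E2 in nulls was 0.07, its difference from that in wild types 0.14, and null against wild type under placebo -0.16.

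Over all genes, counts of calls moved more. In E2 against placebo in wild types they were 32 under median scaling, 46 with only the arrays of the groups compared and 41 without the animals numbered below 750, against 70. In nulls the 1 call became 0 under median scaling, without a filter, with the mean of a gene's probes, with the replicate block, with only the groups compared and without the animals numbered below 750 or above 2000, and 2 with slide as a block. The limma counts at an unadjusted p under 0.05 were 1332 in the reported fit and 869 to 1788 in these. The difference between the E2 effects had 36 calls, 18 under median scaling and 10 without the animals below 750. Null against wild type under placebo had 16, with 7 under median scaling, 8 without a filter, 9 with slide as a block, 8 with only the groups compared, 2 without the animals below 750, 30 with a variance trend and 52 with array weights. Under E2 it had 102, with 39 under median scaling and 35 without the animals below 750. Averaged over both treatments it had 153, with 49 under median scaling and also without the animals below 750, 70 without a filter, 68 with slide as a block, 265 with a variance trend and 515 with array weights. E2 averaged over both genotypes had 29, with 10 under median scaling, 18 with slide as a block and 7 without the animals below 750. The cause of these moves was not tested, beyond the smaller number of arrays where arrays were left out. Leaving out 1 array at a time gave 0 to 2 calls for E2 in nulls, 50 to 87 in wild types and 31 to 40 for their difference, and 24 to 35 for E2 on average. For genotype it gave 67 (without null E2 animal 2 or wild-type E2 animal 5) to 119 under E2, 6 (without wild-type placebo animal 3) to 46 (without null placebo animal 3) under placebo, and 77 (without wild-type E2 animal 5) to 273 (without wild-type placebo animal 5) on average. Each gave 0 members.

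Alas2 under placebo kept its direction in all 35 alternatives (0.76 to 0.95) and an adjusted p under 0.05 in 32, and its average over treatments in 33 of 34. Median scaling gave adjusted p-values of 0.174 and 0.0548. The animals were not treated as paired by replicate number: same-numbered arrays of 2 groups correlated at -0.16 to 0.24, over 0.1 in 12 of 30 pairs, and 11 of the 30 matched best with their own number, which is a hint from the data and not part of the design. With the replicate block 0 members passed in any comparison.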
